A study of Mus musculus with 20 samples.

Results

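The adipocyte markers described here are 8 mouse genes, Adipoq, Plin1, Fabp4, Cfd, Lep, Retn, Cidec and Lipe, read by every probe that the array annotation gives to them on all 20 arrays of the series. The list was set by gene name and not by a rule on measured values, but earlier results of these data were known when it was chosen. Of the 8 genes, 7 had a named probe, and they were read by 8 of the 25697 probes (2 for Lipe, 1 for each of the others). Cfd had no probe under its name and was not measured here. RNA came from gastrocnemius muscle and liver of male Adck2+/- mice, which carry 1 inactivated copy of Adck2, and of WT mice, on the B6N strain, with 5 arrays for each genotype in each tissue: Adck2+/- muscle, WT muscle, Adck2+/- liver and WT liver. The knockout line was derived from mutant embryonic stem cells, and the labels give no treatment. The labels state an age of 3 years for all 20 samples whereas the methods state a younger age in months, so the age of the mice is uncertain. The methods name 5 mice per genotype as the source of both tissues, so muscle and liver arrays may share mice, but no source used here says which arrays do, and the 20 samples were treated as independent.

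White adipocytes store triglyceride in a single large lipid droplet coated by perilipin, release fatty acids from it by lipolysis, and secrete hormones such as adiponectin and leptin. Skeletal muscle normally holds some adipocytes between its fibres and fascicles and beneath its surrounding fascia, and the number of these cells rises with age, inactivity and some muscle diseases. A piece of gastrocnemius thus carries RNA of a few fat cells beside that of fibres, while hepatocytes can hold lipid droplets without being fat cells. In a bulk sample, fewer adipocytes and less RNA per adipocyte cannot be told apart. The members fall into hormones (Adipoq, adiponectin; Lep, leptin; Retn, resistin; Cfd, adipsin), proteins of the lipid droplet (Plin1, perilipin 1; Cidec, which fuses droplets) and proteins that handle fatty acids (Lipe, hormone-sensitive lipase; Fabp4, a fatty acid carrier).

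The values, from Illumina mouse bead arrays, were mean bead signals on a linear scale and came with a p-value for detection above the negative-control beads of the array, under 0.05 of which a probe was called detected. The median signal of an array lay between 131.3 and 189.8 on the 10 muscle arrays and between 125.8 and 219 on the 10 liver arrays. Muscle and liver identity was plain in the WT arrays: all 14 measured skeletal muscle markers were higher and all 11 measured hepatocyte markers were lower in WT muscle than in WT liver. Among the muscle arrays, hepatocyte markers (8 measured) stood apart on 1, Adck2+/- replicate 4, where their mean gene-centred level was 3.22 on the log2 scale, against -1.83 to -0.43 on the other Adck2+/- arrays and -1.99 to 1.79 on the WT arrays. The probe of Adck2 itself was detected on 3 muscle arrays, 2 from Adck2+/- and 1 from WT mice. In liver it was also detected on 3 arrays, all from Adck2+/- mice and 0 from WT mice. It was thus not detected less often in Adck2+/- mice and, being near background, could not check the genotypes.

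Sequences upstream of the transcription start are shown for Adipoq and Lep, the 2 hormone genes whose signals carry most of what follows and moved together across the muscle arrays. They come from RefSeq (GRCm38.p6), 5′ to 3′ on the strand of the gene. The 250 bases before the Adipoq start lie at chr16:23146286-23146535 (plus strand), and those before the Lep start at chr6:29059971-29060220 (plus strand). Capitals mark the letters of CCAAT on either strand in Adipoq and of TTGCNNAA, the core of a C/EBP site, in Lep.

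Adipoq upstream: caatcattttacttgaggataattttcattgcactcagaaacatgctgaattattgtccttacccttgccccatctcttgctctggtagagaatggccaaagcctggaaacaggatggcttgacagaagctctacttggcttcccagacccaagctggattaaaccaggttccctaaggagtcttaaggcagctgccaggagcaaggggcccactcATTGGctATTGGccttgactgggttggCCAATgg
Lep upstream: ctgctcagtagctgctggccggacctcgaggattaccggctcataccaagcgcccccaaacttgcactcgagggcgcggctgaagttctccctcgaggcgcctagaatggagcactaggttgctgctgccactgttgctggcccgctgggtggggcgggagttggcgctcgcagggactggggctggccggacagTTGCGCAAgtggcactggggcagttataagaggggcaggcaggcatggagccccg

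Promoter windows of 300 bases (250 before to 50 after a start) were listed for 7 members, 9 windows in all. Each was searched on both strands for TTGCNNAA, for AGGTCA (a core nuclear receptor site), for TATAAA and for CCAAT. C/EBP proteins and the nuclear receptor PPARG are the best known regulators of adipocyte genes. TTGCNNAA was found in 3 of the 9 windows, those of Plin1, Lep and the second start of Cidec, and in 10.8% of 32851 mouse promoters of the same length. In Lep the match reads the same on both strands and begins 55 bases before the start. CCAAT was found in 1 window, 3 times in Adipoq, within 34 bases of the start, and in 37.4% of all promoters. AGGTCA was found in none of the 9 windows (16.3% of all promoters), and TATAAA in none (13.6%). The TTGCNNAA matches of the other markers are shown with their flanks, the match in capitals.

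Plin1, chr7:79732947-79732972, minus strand: acctctttaTTGCCTAAacatccccc
Plin1, chr7:79732818-79732843, minus strand: tgagaggcaTTGCCCAAgattccctg
Cidec, chr6:113434946-113434971, minus strand: agggctctaTTGCTCAAgggcccatg

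Adipoq was the one member detected on all 10 muscle arrays, and its signal differed several-fold between mice of the same genotype. Its signals in Adck2+/- muscle were 473.2, 1036.4, 554.1, 423.1 and 3077.3 for replicates 1 to 5, against 2682.5, 233.1, 1618.6, 918.7 and 1136.4 in WT muscle. The highest of the 10 arrays was Adck2+/- replicate 5 and the lowest was WT replicate 2, so the genotypes overlapped. After background correction, quantile normalization and log2 transformation the highest array was 28.6-fold above the lowest.

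Lep followed the same order at both ends. It was detected on 9 muscle arrays, all but WT replicate 2, with signals of 183.2, 261.9, 271.4, 185.4 and 593.3 in Adck2+/- muscle, against 415.1, 143.5, 384.5, 214.1 and 268.0 in WT muscle. The normalized log2 values ran up to 9.22 on Adck2+/- replicate 5, and the 5.14 of WT replicate 2 is that of a probe not detected. Retn, in contrast, was detected on 1 of 10 muscle arrays, again Adck2+/- replicate 5, and its signals lay between 118.3 and 169.9.

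Of the lipid droplet proteins, Cidec was detected on 9 muscle arrays, all but WT replicate 2. Its signals were 228.7, 439.6, 202.4, 155.7 and 853.4 in Adck2+/- muscle, against 812.7, 143.0, 488.1, 303.8 and 336.3 in WT muscle. The normalized log2 values ran up to 9.84 on Adck2+/- replicate 5, and the 5.13 of WT replicate 2 is again that of a probe not detected. Plin1 was dimmer and was detected on 5 muscle arrays, of which 1 was from Adck2+/- (replicate 5) and 4 were from WT mice (all but replicate 2). Its signals lay between 130.8 and 190.9 in Adck2+/- muscle and between 132 and 195.2 in WT muscle. For a probe this close to background the normalized values rest on small differences in signal.

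Lipe was read by 2 probes, each annotated to another transcript record of the gene. The brighter one in muscle, ILMN_2742636, was detected on 8 muscle arrays, with signals between 129.4 and 211 in Adck2+/- muscle and between 144.8 and 216.4 in WT muscle. The other, ILMN_3111326, was detected on 7, with signals between 137.1 and 229.9 in Adck2+/- muscle and between 127.1 and 189.9 in WT muscle. Fabp4 was detected on 0 of 10 muscle arrays, at signals of 110.8 to 161. Fabp4 is among the most abundant transcripts of mouse fat, and its probe was at background also on the arrays where Adipoq was brightest.

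**Figure D1:**
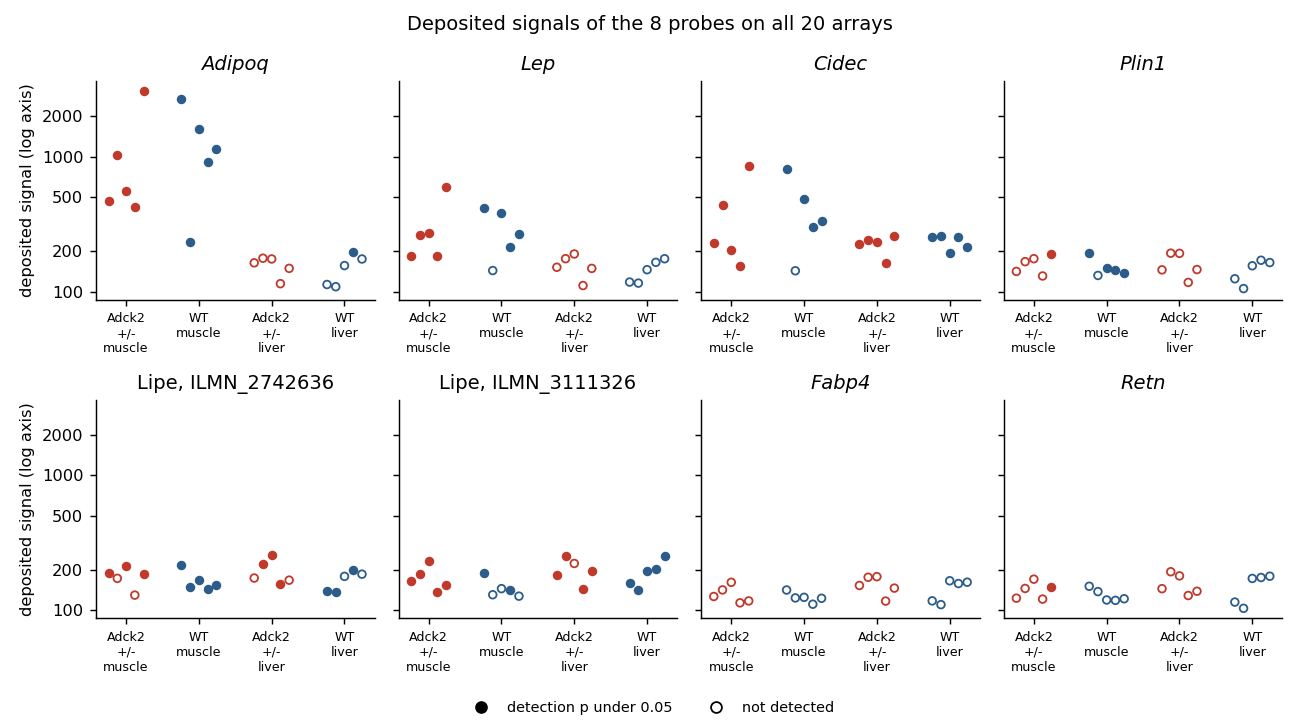
Deposited signal of each of the 8 probes (log axis) on the 20 arrays, with 5 arrays per group shown from left to right as replicates 1 to 5. Filled points were detected at p under 0.05 and open points were not: Adipoq was detected on all 10 muscle arrays and on 1 liver array, while Fabp4 was detected on 0 of 20 arrays.

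The question of the genotype comparison was whether adipocyte marker levels in gastrocnemius differed between Adck2+/- and WT mice. Of the 5 members that passed the filter (detected on 5 or more of the 10 arrays), 0 passed an adjusted p under 0.05 in limma's linear model with Benjamini-Hochberg adjustment over 8424 genes, where 1.89% of all genes did. At an unadjusted p under 0.05, 0 of the 5 passed, as 22.3% of all genes did. The methods' t-test, paired by replicate number and here Benjamini-Hochberg adjusted, called 0 of the 5, but also 0 of all 8424 genes. Without adjustment, at p under 0.05, it passed 1413 of the 8424. For all 5 the genotypes overlapped, whereas 6.23% of all genes had genotypes that did not overlap.

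Adiponectin averaged 9.41 ± 1.43 in Adck2+/- muscle and 9.71 ± 1.57 in WT muscle (normalized log2 signal, SD, n = 5 each), a log2 difference of -0.30 (SE 0.78, adjusted p = 0.853, limma). The 95% interval of this difference, -2.02 to 1.41, covers a change of several-fold in either direction. Leptin averaged 7.10 ± 1.22 in Adck2+/- muscle and 7.12 ± 1.17 in WT muscle, a difference of -0.02 with an interval of -1.39 to 1.35 (adjusted p = 0.990, limma). Cidec had the widest interval, -2.34 to 1.37 around a difference of -0.49 (SE 0.85), with means of 7.24 ± 1.73 in Adck2+/- muscle and 7.73 ± 1.52 in WT muscle. Plin1 and Lipe had narrower intervals, between -0.73 and 0.63 around -0.05 for Plin1 and between -0.62 and 0.56 around -0.03 for Lipe. Their signals lay near background, so the narrower intervals do not show that a change was excluded more closely. The second Lipe probe, which did not stand for the gene, gave a difference of 0.45 (SE 0.17). It did not pass in a fit of single probes (unadjusted p = 0.0239, adjusted p = 0.136, limma). This probe was detected on 5 of 5 Adck2+/- and 2 of 5 WT muscle arrays.

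The size of the difference moved with single arrays, in both directions. Without Adck2+/- replicate 5 the log2 difference of Adipoq was -0.91 (adjusted p = 0.417, limma), that of Cidec -1.14 and that of Lep -0.55. Without WT replicate 2 these differences were -0.99, -1.14 and -0.51, and again 0 of the members tested passed. The difference of Adipoq was closer to 0 without WT replicate 1 (-0.015), WT replicate 3 (-0.083), WT replicate 5 (-0.19), Adck2+/- replicate 3 (-0.034), Adck2+/- replicate 1 (-0.062) or Adck2+/- replicate 4 (-0.18). That of Cidec ranged up to -0.041, without Adck2+/- replicate 3. Plin1 no longer passed the filter without Adck2+/- replicate 5, nor without WT replicate 1, 3, 4 or 5.

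**Figure D2:**
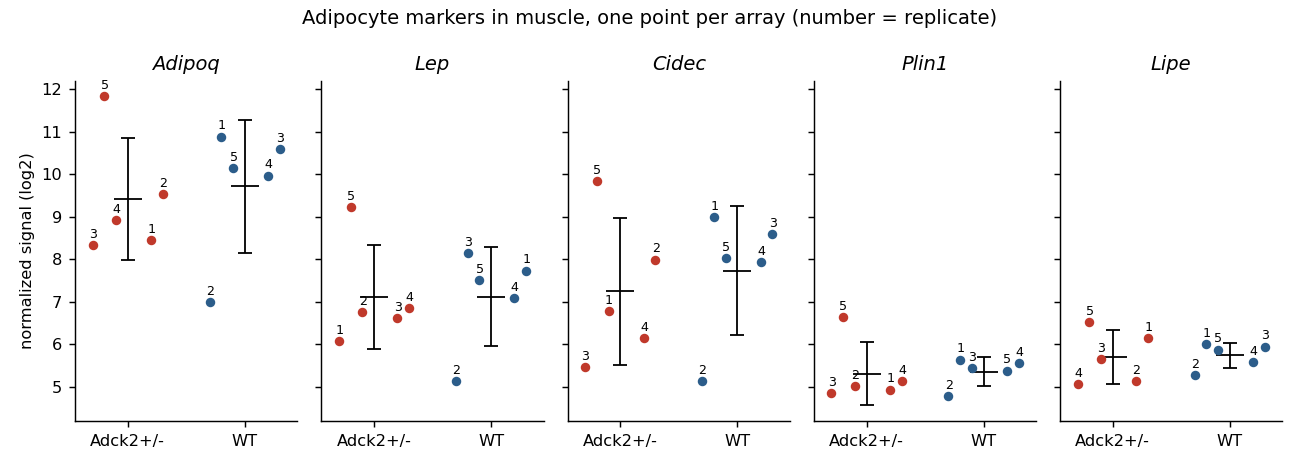
Normalized log2 signal of the 5 members that passed the filter in muscle, 1 point per array with its replicate number, for Adck2+/- and WT mice, and the mean ± SD of 5 arrays as a bar with whiskers. Replicate 5 is the highest Adck2+/- point and replicate 2 the lowest WT point for each of the 5 genes.

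**Figure D3:**
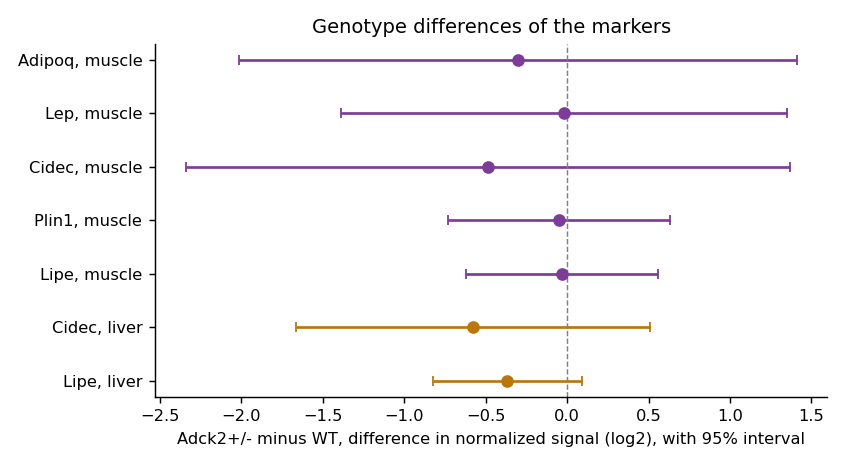
Difference between Adck2+/- and WT mice in normalized log2 signal for the 5 members tested in muscle and the 2 tested in liver, as points with 95% intervals from limma. All 7 intervals include 0, and those of Adipoq, Lep and Cidec in muscle are the widest.

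The spread between mice of the same genotype was far above that of a usual gene for Adipoq, Cidec and Lep. The within-genotype SD of Adipoq in muscle was 1.50 on the log2 scale, rank 21 from the top of 8424 genes, against a median of 0.24 over all genes. Cidec had an SD of 1.62 (rank 18) and Lep one of 1.20 (rank 45). Plin1 (0.58, rank 268) and Lipe (0.49, rank 498) lay at percentiles 96.8 and 94.1, but without background correction at 72.4 and 56.1, while Adipoq, Cidec and Lep stayed at 99.9, 99.7 and 99.2. The spread of Adipoq was not set by 1 array alone: it was 1.24 without Adck2+/- replicate 5 and 1.11 without WT replicate 2, at percentiles 99.6 and 99.4.

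Lep, Cidec and Plin1 varied with Adipoq from array to array. Over the 10 muscle arrays, with each value centred on its genotype mean, Lep correlated with Adipoq at Pearson's r = 0.97 and Spearman's rho = 0.96, and Cidec at 0.96 and 0.95 (permutation test, two-sided, adjusted p over 4 relations 0.00012 for r and 0.000173 for rho, for both genes). Plin1 correlated at r = 0.88 and rho = 0.95 (adjusted permutation p = 0.00068 and 0.000173). Lipe, the lipase, which muscle fibres also make, did not pass (r = 0.61 and rho = 0.55, adjusted permutation p = 0.0588 and 0.104), but its r passed without background correction (0.66, adjusted permutation p = 0.0382), without Adck2+/- replicate 1 (0.77, exact p = 0.0159) and without Adck2+/- replicate 2 (0.70, exact p = 0.0354).

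Leaving out the 2 arrays farthest from the median of Adipoq, Adck2+/- replicate 5 and WT replicate 2, and centring the other 8 again, r remained past the threshold for Cidec (0.84, adjusted exact permutation p = 0.0291). It was 0.63 for Lep (adjusted exact permutation p = 0.198), 0.50 for Plin1 (0.267) and -0.37 for Lipe (0.372), so within genotypes these 3 relations rested on those 2 arrays. Without centring, a setting added after seeing the data, r over the same 8 arrays was 0.93 for Cidec, 0.91 for Plin1, 0.90 for Lep and 0.27 for Lipe, values that also hold the difference between the genotypes.

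**Figure D4:**
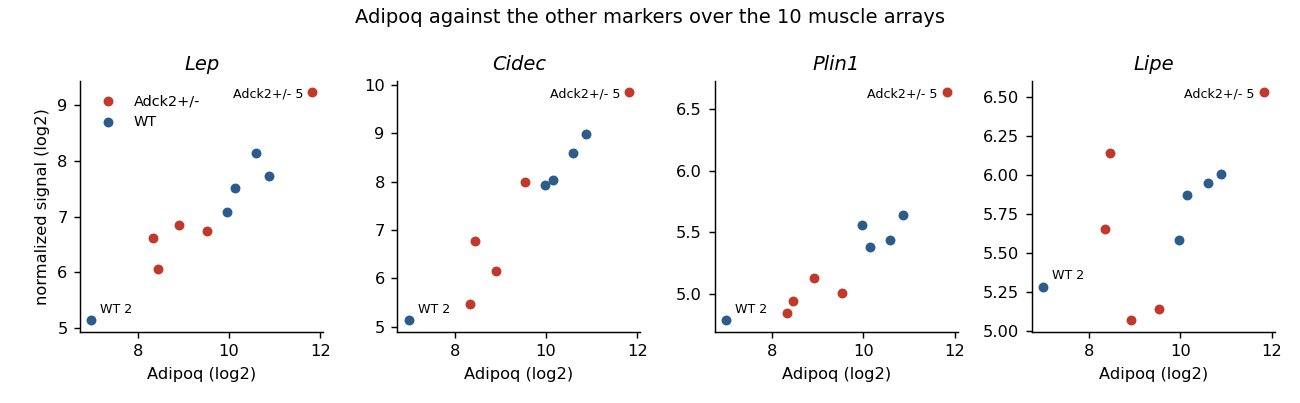
Normalized log2 signal of Lep, Cidec, Plin1 and Lipe (each on its own axis) against that of Adipoq over the 10 muscle arrays, 5 from Adck2+/- and 5 from WT mice. Adck2+/- replicate 5 lies at the upper right and WT replicate 2 at the lower left of the Lep, Cidec and Plin1 panels, and the Lipe points scatter most.

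To place the arrays on 1 scale, each of the 5 members was centred on its mean over the 10 muscle arrays and the 5 were averaged. This adipocyte level was -0.57, -0.16, -0.86, -0.62 and 1.77 in Adck2+/- replicates 1 to 5, against 0.81, -1.58, 0.70, 0.18 and 0.34 in WT replicates 1 to 5 (log2). Adck2+/- replicate 5 thus had the highest adipocyte level of the 10 and WT replicate 2 the lowest. A list of other adipocyte genes, of which 24 of 31 passed the filter, had levels of -0.22, -0.39, -0.33, -0.29 and 1.14 in Adck2+/- muscle, against 0.37, -0.44, -0.07, 0.14 and 0.09 in WT muscle, and had its highest and lowest values on the same 2 arrays. Skeletal muscle markers (14 of 15 measured) moved little, between -0.07 and 0.16 in Adck2+/- muscle and between -0.30 and 0.10 in WT muscle. The hepatocyte level, 3.22 on Adck2+/- replicate 4, was -0.73 on Adck2+/- replicate 5 and -1.99 on WT replicate 2. The 5 measured macrophage markers had their highest level on Adck2+/- replicate 5 as well (0.64, against -0.43 on WT replicate 2). The part that these other cells had in the adipocyte level was not tested.

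**Figure D5:**
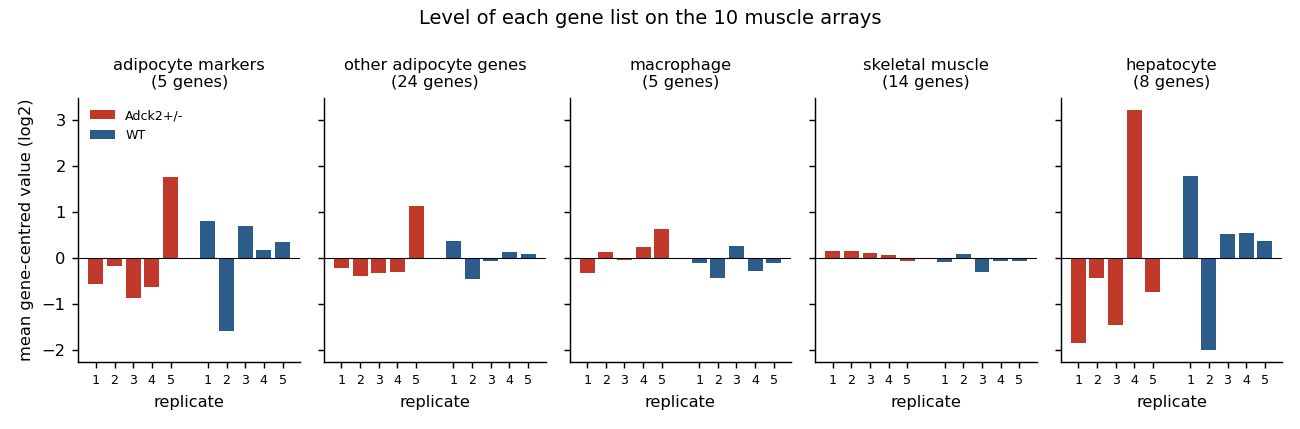
Mean gene-centred log2 value of 5 gene lists on each of the 10 muscle arrays, Adck2+/- replicates 1 to 5 left of WT replicates 1 to 5. The adipocyte markers and the other adipocyte genes peak on Adck2+/- replicate 5 (1.77 and 1.14), the hepatocyte markers on Adck2+/- replicate 4 (3.22).

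Across the 10 muscle arrays, with genotype-centred values, the genes outside the members that correlated best with the mean of the 5 were described by Pearson's r, without a test. They all share the same 10 arrays. The closest was Arxes2, an adipocyte-related gene of the X chromosome (r = 0.99), then Npc2, which carries cholesterol in lysosomes (0.98), Dram1, a lysosomal membrane protein (0.97), Ifi27l2a, an interferon-induced gene (0.97), and Ffar2, a receptor for short-chain fatty acids (0.97). They were followed by Mgst2, a microsomal glutathione transferase (0.96), and Mrap, the accessory protein of melanocortin receptors (0.96). Next were Aoc3, an amine oxidase of fat and vessel cells (0.95), Rbm47, an RNA-binding protein (0.95), Slc1a3, a glutamate transporter (0.95), Acaca, an acetyl-CoA carboxylase (0.95), and Hoxc9, a homeobox factor (0.94). Arxes2 had a log2 signal of 9.95 on Adck2+/- replicate 5 and 5.69 on WT replicate 2, the highest and lowest of the 10. Over the 8 arrays without those 2, r was 0.94 for Arxes2 and for Aoc3, but 0.42 for Mrap, 0.34 for Hoxc9 and 0.30 for Acaca. The most opposite genes were Golga4 (-0.94), a Golgi coiled-coil protein, Gtdc1 (-0.94), Prkch (-0.93), a protein kinase C, and Brf1 (-0.93), a subunit of a transcription factor of RNA polymerase III.

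By list, the median r with the members was 0.74 for the other adipocyte genes (19 of 24 above 0) and 0.71 for macrophage markers (5 of 5), against -0.07 over 8419 genes. It was -0.53 for skeletal muscle markers (0 of 14 above 0) and -0.45 for endothelial markers (0 of 8). These values lay closer to that of all genes without the 2 extreme arrays, but leaving those out also narrows the range of the members' mean. Over the other 8 the median r was -0.02 for the other adipocyte genes (11 of 24 above 0 and 13 below), -0.06 for skeletal muscle markers (5 of 14 above 0), 0.40 for macrophage markers (5 of 5) and -0.32 for endothelial markers (2 of 8), against 0.04 over all genes. Macrophage markers did not stand apart over these 8 arrays. Fibroblast markers had a median r of 0.50 (9 of 10 above 0), against 0.27 over all 10 arrays (8 of 10). Schwann cell markers had 0.32 (3 of 3) and receptors for adipocyte hormones 0.31 (4 of 4), against -0.16 and -0.39 over all 10 arrays. Pparg, the nuclear receptor that directs fat cell formation, had r = 0.77 over 10 arrays and 0.05 over 8. Slc2a4, the glucose carrier that muscle fibres share with fat cells, had r = 0.11 over 10 arrays and -0.03 over 8.

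Of the 24 other adipocyte genes tested in muscle, 1 rose in Adck2+/- mice and 0 fell, where 1.89% of all genes passed. At an unadjusted p under 0.05 there were 3, where 22.3% of all genes were. Their median log2 difference was -0.03, against -0.01 over all genes. The gene that rose was Car3, a carbonic anhydrase of fat cells and slow muscle fibres, which averaged 14.04 ± 0.16 in Adck2+/- muscle and 12.84 ± 0.39 in WT muscle (log2 difference 1.20, SE 0.17, adjusted p = 0.0164, limma). Car3 did not track the adipocyte markers upwards: its r with their mean was -0.70, and its signal did not peak on Adck2+/- replicate 5, where it was 13.95. Among those that did not pass, Gpd1, a glycerol phosphate dehydrogenase, had a difference of -0.68 (adjusted p = 0.0632, limma), Cidea, a droplet protein of brown fat, one of -0.68 (0.701) and Cd36, a fatty acid carrier, one of 0.65 (0.0993).

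Partners of the members in lipolysis were followed as a second list, since Lipe acts after the first lipase and is held at the droplet by perilipins. In muscle 0 of 9 passed (1 at an unadjusted p under 0.05, where 22.3% of all genes were), with a median difference of 0.16. Pnpla2, the lipase that takes the first fatty acid, had a difference of 0.49 (SE 0.13, adjusted p = 0.0787, limma), Plin5, the perilipin of oxidative tissue, one of 0.62 (0.343), Plin4 one of 0.25 (0.356) and Mgll, which takes the last fatty acid, one of 0.24 (0.504). Of the receptors for adipocyte hormones, 0 of 4 passed, with 2 at an unadjusted p under 0.05, beside the same 22.3% of all genes. Cap1, a partner of resistin in human cells, had a difference of -0.61 (adjusted p = 0.0558, limma), the adiponectin receptor Adipor2 one of 0.36 (0.146), Cdh13, which binds adiponectin, one of 0.02 (0.942) and Adipor1 one of -0.01 (0.955).

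Because the adipocyte level differed so much between muscle arrays, the genotype fit over all other genes was repeated with it as a covariate. It called 241 of 8419 genes (2.86%), 130 higher and 111 lower in Adck2+/- muscle, and all 159 genes called without the covariate were among them. The log2 difference of Car3 was 1.17 (SE 0.14, adjusted p = 0.00976, limma). The count depended on single arrays: it was 1 without Adck2+/- replicate 5, where the fit without the covariate called 703. With the covariate it was 678 without Adck2+/- replicate 4, 20 without WT replicate 2, 38 without WT replicate 5, 54 without Adck2+/- replicate 3 and 116 without WT replicate 4. It was 132 without Adck2+/- replicate 2, 134 without WT replicate 3 and 148 without Adck2+/- replicate 1.

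In liver most members were at background. Adipoq was detected on 1 of 10 liver arrays (WT replicate 4, the brightest at a signal of 195.9), and Plin1, Lep, Retn and Fabp4 were detected on 0 of 10. Cidec, which hepatocytes can also make, was detected on all 10, at signals between 164.4 and 259.3. Lipe was detected on 9 liver arrays by 1 probe (ILMN_3111326) and on 6 by the other.

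Between the genotypes, 0 of the 2 members tested in liver passed in limma, where 0.0118% of 8484 genes did, and 0 were at an unadjusted p under 0.05, where 7.04% of all genes were. The methods' t-test, paired and adjusted as in muscle, called 0 of all 8484 genes, and without adjustment it passed 478 at p under 0.05. Cidec had normalized log2 signals of 6.52, 5.83, 5.49, 6.37 and 6.88 in Adck2+/- liver, against 8.03, 8.05, 5.64, 6.54 and 5.71 in WT liver. WT replicates 1 and 2 lay above all Adck2+/- arrays and WT replicates 3 and 5 among the low ones, and the log2 difference was -0.58 (SE 0.50, adjusted p = 0.929, limma). Its within-genotype SD, 0.93, was rank 64 of 8484 genes. These signals lay near background, where normalized values rest on small differences. Signals of 254.7 on WT replicate 1 and 259.3 on Adck2+/- replicate 5 became 8.03 and 6.88, on arrays with median signals of 129.7 and 168.8. Without background correction the difference of Cidec was -0.29. Lipe differed by -0.37 (SE 0.21, adjusted p = 0.798, limma), with overlapping genotypes, as for Cidec, whereas 1.8% of all genes had genotypes that did not overlap. In liver 0 of 18 other adipocyte genes passed (3 at an unadjusted p under 0.05), 0 of 11 lipolysis partners (0) and 0 of 4 hormone receptors (1). The largest differences in those lists were -1.64 for Pck1, which makes glycerol phosphate precursors (adjusted p = 0.341, limma), and 1.00 for Fasn, the fatty acid synthase (0.526).

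The tissue comparison asked where each marker was higher, in WT mice. With all 20 arrays normalized together, 4 of 5 members tested passed, where 75.9% of 9841 genes did, so that passing here sets no gene apart. Of the members, 3 were higher in WT muscle (40.1% of all genes were) and 1, Lipe, was lower (35.8%). The 3, Adipoq, Lep and Plin1, passed the filter through muscle, being detected on 1, 0 and 0 of 10 liver arrays. The filter itself thus favoured a higher value in muscle for them. Adipoq averaged 9.89 ± 1.60 in WT muscle and 4.80 ± 0.35 in WT liver (log2, SD, n = 5 each), a difference of 5.09 (SE 0.61, adjusted p = 1.46e-07, limma). It was detected on 1 of 5 WT liver arrays, so the liver mean is mostly that of background, and the difference was 2.84 without background correction. Lep averaged 7.24 ± 1.21 in WT muscle and 4.69 ± 0.12 in WT liver, where it was detected on 0 of 5 arrays. The differences were 2.55 for Lep (adjusted p = 7.46e-05, limma) and 0.71 for Plin1 (adjusted p = 0.0152, limma). With the liver value raised on each array to the lowest signal of any detected probe, the bounds on the fold were 3.63 for Lep and 1.03 for Plin1. These bounds were not tested, and the muscle means include WT replicate 2, on which neither probe was detected.

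Cidec did not pass between tissues: it averaged 7.86 ± 1.56 in WT muscle and 6.70 ± 1.16 in WT liver, a difference of 1.16 (SE 0.75, adjusted p = 0.165, limma). It passed without WT muscle replicate 2 (difference 1.84, adjusted p = 0.0189, limma). The direction for Lipe depended on the probe. ILMN_3111326 averaged 5.25 ± 0.35 in WT muscle and 5.96 ± 0.42 in WT liver (difference -0.71, SE 0.20, adjusted p = 0.00274, limma). ILMN_2742636 averaged 5.81 ± 0.31 in WT muscle and 5.39 ± 0.33 in WT liver and did not pass (0.42, adjusted p = 0.152 in a limma fit of single probes). Whether the genotype difference itself differed between muscle and liver was tested as an interaction over 9841 genes, of which 0.0915% passed. Of the 5 members 0 passed and 1 was at an unadjusted p under 0.05, as 13.7% of all genes were, Lipe by ILMN_3111326 (0.82, SE 0.28, adjusted p = 0.218, limma). By ILMN_2742636 the interaction had the other sign (-0.16, SE 0.37, adjusted p = 0.906 in a limma fit of single probes), so this too depended on the probe.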

How the data were processed

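The intensity values are probe signals that the authors deposited without normalization between arrays, and each deposited detection p-value compares a signal with negative-control beads. How the authors treated background is not given in the sources used here. The methods name an Affymetrix chip, but the probe names are Illumina's. The deposited value table differs from these signals for 2165 probes, 0 of them of the markers, and served as an alternative.

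Gene names came from the platform annotation, updated by gene identifier (23962 of 23978 probes with 1 gene matched, and 1719 probes were unnamed). With limma 3.58.1 in R 4.3.3, neqc corrected background from the detection p-values, added an offset of 16, quantile normalized and took log2, within each tissue for the genotype comparisons and over all 20 arrays for the tissue comparison and the interaction. Probes detected (p under 0.05) on 5 arrays or more were kept, and the brightest stood for its gene. Groups were compared with lmFit and eBayes, with Benjamini-Hochberg adjustment over all genes and calls at an adjusted p under 0.05. Correlations were tested with 100000 permutations, or with every order of the arrays where there were fewer than 10, which is called exact here (scipy 1.17.1). Values were permuted over both genotypes together and not within each. For values centred on their genotype mean the p-values are therefore approximate and may be too small. Bounds on a fold took, on each array, the higher of the lowest signal of any detected probe and the probe's own. The steps were tested on simulated data. The methods give 5 mice per genotype, and the number of arrays limits the precision.

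All members were named, with Car3 and Adck2. Of the other adipocyte genes, lipolysis partners and hormone receptors, called genes and the 4 with the largest difference in muscle were named, and in liver the 2 largest. The 12 genes most like the members and the 4 most opposite were named. Pparg, Slc2a4, Col1a1 and Cd14 were named after their values were seen. The members and lists were chosen with earlier results of these data known. Alternatives covered background, offset, scaling, filter, probe, replicate block, array weights, the methods' t-test (paired by replicate number), the value table and each array left out.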

Additional observations from a re-analysis of the deposited data

Results flagged for a closer look

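The spread within each group of 5 arrays was examined for 74 groups of probe values and list levels, and 10 had a highest or lowest array set apart from the others. The measure is the gap to the nearest array as a share of the group's whole range, and the limit for 5 arrays is 0.71. Chance alone passes this limit in about 1 group of 20.

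Adck2+/- muscle replicate 5 stood above the rest of its group for Plin1 (0.843), Lep (0.751) and Retn (0.773), for the level of the adipocyte markers (0.733) and for that of the other adipocyte genes (0.891). Retn was detected on this muscle array and on 0 of the other 9. WT muscle replicate 2 stood below the rest of its group for Adipoq (0.766), Cidec (0.725) and the level of the adipocyte markers (0.738). The level of the hepatocyte markers stood apart on Adck2+/- muscle replicate 4 (0.722), where the adipocyte level was -0.62. In liver, Adipoq was set apart on WT replicate 4 (0.773), the 1 liver array on which it was detected. These 10 values share arrays and genes and are not independent.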

How the results depend on the processing

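Under all alternatives run, 0 members passed between genotypes in muscle or liver or in the interaction. In liver the stricter filter left 0 members to test. Signs near 0 turned. The muscle differences became 0.0023 (Lipe) and 0.0017 (Plin1) without background correction, 8.07e-05 and 0.0022 with an offset of 50, and 0.032 (Lipe) and 0.0021 (Lep) with median scaling. The interaction became 0.00039 (Plin1) without background correction, -0.023 (Lep) and 0.0055 (Plin1) with an offset of 50, 0.13 (Adipoq) and 0.24 (Plin1) with median scaling, and -0.23 (Lep) with array weights. With 1 array left out, muscle differences ranged from -0.99 to -0.015 (Adipoq), -1.14 to -0.041 (Cidec), -0.55 to 0.24 (Lep), -0.24 to 0.13 (Lipe) and -0.20 to 0.068 (Plin1), and interactions from -0.88 to 0.11 (Adipoq), -0.62 to 0.52 (Cidec), -0.53 to 0.28 (Lep), -0.25 to 0.91 (Lipe) and -0.20 to 0.074 (Plin1). The Plin1 ranges cover 5 muscle and 15 interaction fits, against 10 and 20 for Adipoq, since Plin1 did not pass the filter in the others. For Lipe between tissues the range was -0.81 to 0.49, since the brightest probe changed.

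Between tissues 4 of 5 members passed, 2 of 2 with the stricter filter, 3 to 5 with 1 array left out, and 3 with median scaling, where Plin1 did not (0.62, adjusted p = 0.0622, limma). Without background correction the spread was 0.18 for Plin1, 0.64 for Lep, 0.90 for Cidec and 0.15 for Lipe, and Lipe correlated with Adipoq at r = 0.66, which then passed. That r ranged from 0.33 to 0.77 with 1 array left out. The fit with the adipocyte level called 399 genes without background correction, 393 with an offset of 50 and 486 with the stricter filter, and 1 to 678 with 1 array left out.

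Over all genes in muscle, 159 were called, 70 without a filter, 671 with single probes tested, 354 with array weights and 0 by the methods' t-test (1413 at an unadjusted p under 0.05). Left out in turn, WT replicates 1 to 5 gave 72, 156, 81, 62 and 14 calls, and Adck2+/- replicates 1 to 5 gave 87, 67, 36, 53 and 703. The interaction called 9 genes, 35 without background correction, 63 with array weights and 153 without Adck2+/- muscle replicate 5. Same-numbered samples do not show pairing: 1 of 5 pairs correlated above 0.1 in each tissue. With the replicate number as a block 0 members passed in muscle, in liver and in the interaction, 4 of 5 between tissues, and 0 of all genes in muscle (1756 at an unadjusted p under 0.05). Signals near background limit Plin1, Lipe, Fabp4 and Retn, and Cidec in liver.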

Other observations

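Markers of cell types other than fat that a piece of muscle can hold were counted between the genotypes in muscle. By limma at an adjusted p under 0.05, 0 of 14 skeletal muscle markers, 0 of 8 hepatocyte, 0 of 10 fibroblast, 0 of 8 endothelial, 0 of 5 macrophage, 0 of 3 Schwann cell and 0 of 2 red cell markers passed, and at an unadjusted p under 0.05 the counts were 2, 0, 4, 1, 1, 0 and 0 in that order. Over all genes in muscle, 1.89% passed and 22.3% were at an unadjusted p under 0.05. With so low a share passing, 0 calls in lists this small set no cell type apart. Col1a1, a fibrillar collagen chain, had a log2 difference of -1.10 between Adck2+/- and WT muscle (SE 0.33, adjusted p = 0.0965, limma), and Cd14, a receptor of macrophages, one of 0.62 (SE 0.16, adjusted p = 0.0723, limma). Col1a1 had the largest difference of a mixed list. Of the 10 fibroblast markers 4 were above 0, and their median difference was -0.11. All 5 macrophage markers were above 0, with a median of 0.21. The hepatocyte list had a median difference of -0.62, with 1 of its 8 genes above 0, although its single highest array was from an Adck2+/- mouse.

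In WT mice, 11 of 25 other adipocyte genes were higher in muscle than in liver and 12 were lower, where 40.1% and 35.8% of all genes were.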
